A study of Mus musculus with 6 samples.

Results

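The genes described here are Il31ra, Osmr, Osm, Il6st, Il6ra, Lifr, Lif and Socs3, which encode receptors, ligands and a feedback inhibitor of the interleukin-31 and oncostatin M branch of the interleukin-6 cytokine family. They were taken by gene symbol from the 32285 genes listed in the count matrices, and all 8 were found. They were picked with their levels at day 1 and day 21 and after hyperoxia already known. Those levels and differences are therefore a description, and results of statistical fits on age and hyperoxia are printed as part of it. Only the comparisons of the sexes are read as tests for these 8 genes.

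Lungs of wild-type C57BL/6N mice were dissociated, live cells were sorted and their transcripts were counted cell by cell as unique molecular identifiers (UMIs). There were 6 libraries, each from a pool of 3 mice of 1 sex, so animals within a pool could not be told apart. A female and a male library came from postnatal day 1 in room air (21% oxygen). Another female and male library were made at day 21 from mice kept in room air, and the last pair at day 21 from mice given 95% oxygen between day 1 and day 5 and returned to room air. The study's title names the question, which is how sex modifies recovery from neonatal hyperoxic lung injury. Each combination of sex, age and exposure had 1 library. No p-value or standard error (SE) below therefore measures the spread between animals, or between pools of 1 combination. The main fits took their spread from how far libraries departed from added effects of sex and condition, shared over genes.

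Interleukin-6 family cytokines signal through cell-surface receptor pairs that activate Janus kinases and the transcription factor STAT3. Most of them share gp130, the product of Il6st: oncostatin M binds gp130 with the oncostatin M receptor (Osmr), leukaemia inhibitory factor (Lif) binds gp130 with Lifr, and interleukin-6 needs its own receptor subunit (Il6ra) to engage gp130. Mouse oncostatin M acts mainly through Osmr. Interleukin-31 is the exception, since its receptor pairs Il31ra with Osmr and does not use gp130. Socs3 is induced by STAT3 and binds gp130 and the kinases to shut the signal off.

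In GENCODE M21 (GRCm38), several of these genes are neighbours. Il6st (chr13:112464070-112510086, plus strand) and Il31ra (chr13:112519898-112594360, minus strand) lay 9.811 kb apart. Osm (chr11:4236420-4241026) and Lif (chr11:4257557-4272514), both on the plus strand, lay 16.53 kb apart. Osmr (chr15:6813577-6874969, minus strand) and Lifr (chr15:7090614-7197489, plus strand) lay 215.6 kb apart. Il6ra (chr3:89864059-89913196, minus strand) overlapped the antisense gene Gm42809 on the opposite strand, and Socs3 lay at chr11:117966079-117970047 on the minus strand.

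The promoters were searched for the motif that STAT proteins bind, since STAT3 carries the signal of this family and Socs3 is a textbook target. RefSeq promoter windows (GRCm38.p6, 250 bases before to 50 bases after each start site) were held for 7 of the 8 genes, in 8 windows since Lifr had a pair of starts. The palindromic motif TTCNNNGAA was searched on both strands, and 2 of the 8 windows held it, in Socs3 and Il31ra. Of all 32851 promoter windows of that length, 2726 (8.3%) held the motif. The stretches with a match are shown because no other member's window held one. The match began at base -154 from the start site of Socs3 and at base -191 from that of Il31ra. Both 30-base stretches lie in an intron of the GENCODE gene model, Socs3 at chr11:117969501-117969530 and Il31ra at chr13:112580834-112580863, and are shown 5′ to 3′ on the minus strand with the motif in capitals.
Socs3: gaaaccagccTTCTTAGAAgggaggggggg
Il31ra: cctgaagggtTTCCAGGAAattgtgataat

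Libraries held 122173482 to 163649658 UMIs in 10533 to 14968 barcodes, and the cells with one of the authors' classes had a median of 8329 to 9703 UMIs. Pairs of libraries shared 9 to 37 cell barcodes, at most 0.376% of the smaller library. In the female hyperoxia library 863 of 2434 gCap cells (35.5%) had no UMI of the female transcript Xist, against 2.86% in the female day 21 room air library, so the counts of calls after hyperoxia and between the sexes were also made without those cells. Per the file headers, the day 1 matrices were made with Cell Ranger 6.0.0 and the day 21 matrices with 7.0.1, while the submitters' processing notes list 6.0.0. Age and software version therefore cannot be told apart in any difference between day 1 and day 21. Whether reads in introns were counted is not given in the sources used here, and as background the later software counts them by default. Levels are given as CPM, the usual scaling of a gene's UMIs to the total UMIs of all cells of a class in a library, with the female value given before the male one. In this text gCap and aCap are the authors' names for capillary classes, used in the field for general capillary cells and aerocytes. The markers of a few classes were summed. The aCap markers stood at 2939 to 7309 CPM in aCap and at or under 387 CPM in the other endothelial classes, the arterial markers at 5688 to 6510 CPM in arterial cells, and the venous markers at 1595 to 7656 CPM in venous cells.

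Il31ra, the subunit that gives interleukin-31 its specificity, was almost unseen at day 1 and was counted in every class at day 21. In gCap it had 0 UMIs in 2060 female and 0 in 1683 male cells at day 1, where 3 UMIs would allow at most 0.236 and 0.306 CPM. At day 21 in room air it stood at 123 and 86.1 CPM in gCap, and after hyperoxia at 122 and 115 CPM. Against the day 1 floor of 3 UMIs per library, the day 21 room air level in gCap was at least 523-fold higher in females and at least 281-fold higher in males. The day 21 and day 1 libraries did not overlap in gCap, aCap, arterial or venous cells, as the plot of receptor genes in endothelial classes shows. How many of all genes separate the ages in this way was not counted, and nothing is read from such separation here or below. In the edgeR fits described below, 57.8% of all pairs of a gene and an endothelial class were called between the ages.

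The other endothelial classes had the same Il31ra pattern. In aCap the level was 0 and 0 CPM at day 1, 124 and 86.4 CPM at day 21 in room air and 119 and 103 CPM after hyperoxia. In arterial cells it was 0 and 0.393 CPM (1 UMI in the male library) at day 1, 127 and 101 CPM at day 21 and 133 and 109 CPM after hyperoxia. In venous cells it was 0 and 0 CPM, then 146 and 94.0 CPM, then 147 and 127 CPM. The male room air library was the lowest of the 4 day 21 libraries in each of these 4 classes.

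**Figure D1:**
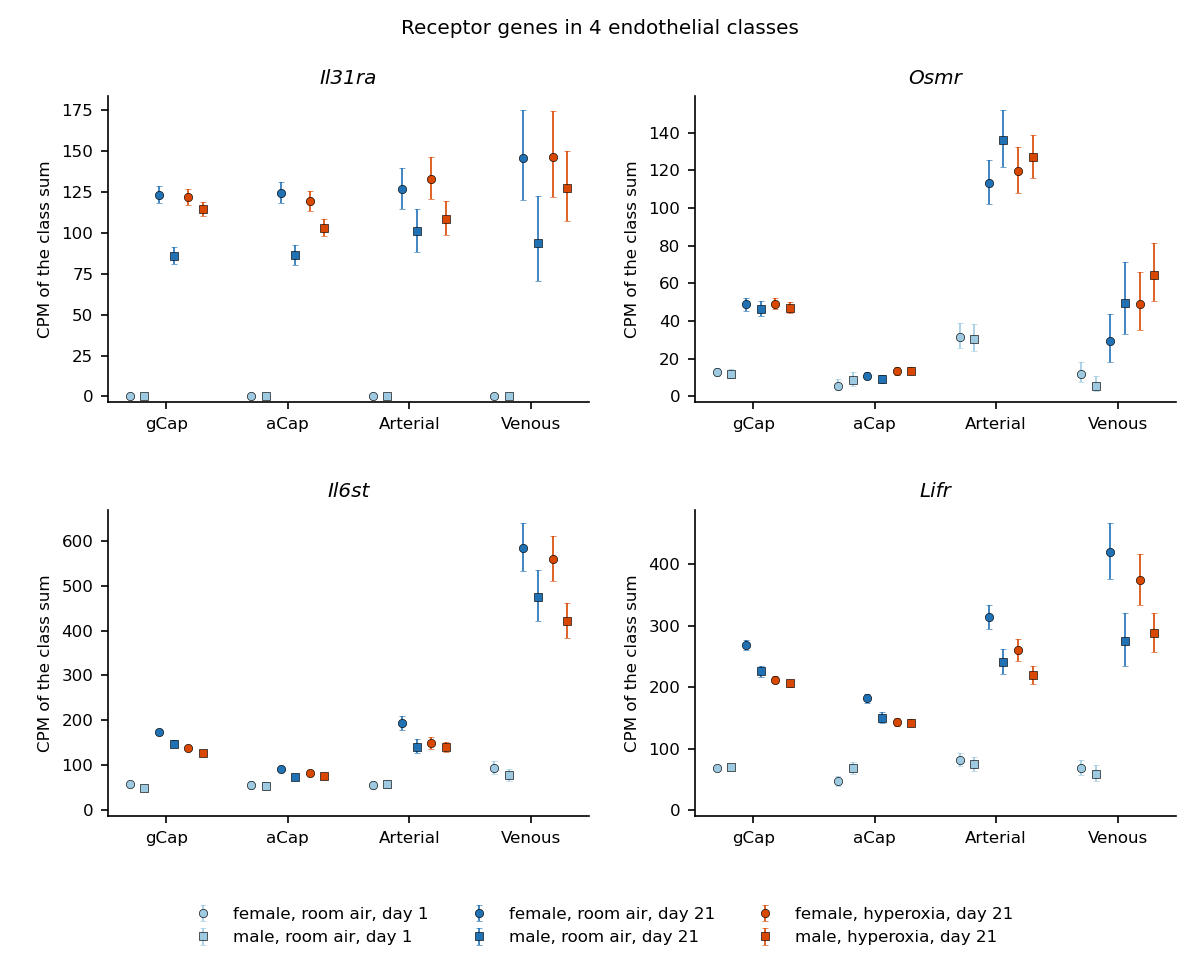
CPM of Il31ra, Osmr, Il6st and Lifr in 4 endothelial classes, with 1 point per library and exact Poisson 95% intervals that cover counting error only; the y axes start at about 0 and differ between panels. Il31ra lies at or near 0 in both day 1 libraries of each class, while Osmr in aCap is at 5.61 and 8.89 CPM at day 1 and at 10.8 and 9.12 CPM at day 21 in room air.

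At day 21, over the classes with at least 50 cells, 17 to 19 per library, each had Il31ra UMIs, and the highest class stood only 1.82 to 2.55 times above the lowest. The lowest level was 64.9 CPM, in dendritic cells of the male room air library, and the highest was 171 CPM, in alveolar macrophages of the male hyperoxia library. The level in empty droplets was not measured here. Neutrophils, which had 0 UMIs at day 1, stood at 142 and 126 CPM at day 21 in room air, and alveolar macrophages at 136 and 166 CPM. Over all cells with a class, the day 1 libraries held 10 and 7 Il31ra UMIs, and the day 21 room air libraries 11945 and 7521. In gCap the sexes (123 and 86.1 CPM) lay farther apart than female gCap and female neutrophils (123 and 142 CPM). Male gCap and male neutrophils (86.1 and 126 CPM) lay farther apart than the sexes in gCap.

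The share of cells with an Il31ra UMI was 64.5% of female gCap at day 21 in room air (exact binomial 95% interval 62.2% to 66.7%) and 47.1% of male gCap (44.5% to 49.7%). In neutrophils, which serve as a reference because their Osmr was near 0, the shares were 50.6% and 48.7%, at a median of 5083 and 5331 UMIs per cell against 8693 and 7711 in gCap. After each cell was thinned to 2000 UMIs the shares were 22.0% and 14.5% in gCap and 24.8% and 20.5% in neutrophils. The thinned shares of gCap were below those of neutrophils in both sexes.

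**Figure D2:**
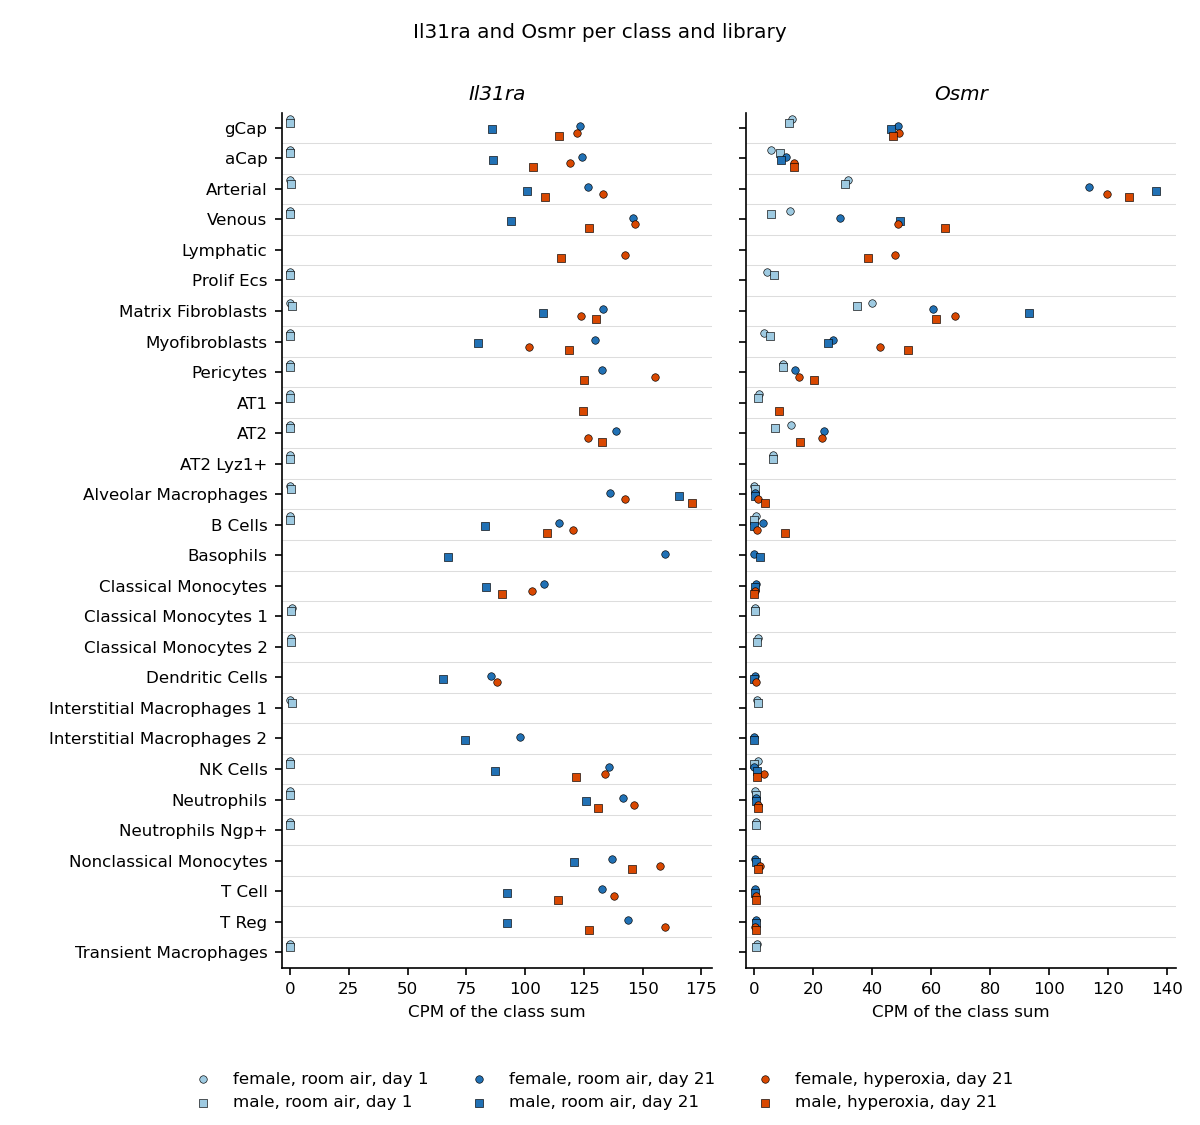
CPM of Il31ra (left) and Osmr (right), the subunits of the interleukin-31 receptor, per class and library, for classes with at least 50 cells in that library. Il31ra separates the day 1 points from the day 21 points in each class measured at both ages, with day 21 points between 64.9 and 171 CPM, while Osmr at day 21 in room air is at 9.12 CPM or more in gCap, aCap, arterial and venous cells and at most 2.92 CPM in the immune classes.

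The 5 genes whose levels ran most like Il31ra, over 112 sums of a class in a library (28 classes, sums of at least 50 cells, 14712 genes compared), were the non-coding gene Gm48099 (r = 0.99), Cmss1 (r = 0.985), the autophagy regulator Ambra1 (r = 0.974), the Mediator kinase Cdk8 (r = 0.971) and gephyrin, Gphn (r = 0.971). The sums share libraries and depth, so these values are a description. Cmss1 stood at 13.1 and 10.8 CPM over all classed cells at day 1 and at 4577 and 4894 CPM at day 21 in room air. Gm48099 had 0 UMIs in both day 1 libraries and stood at 24.5 and 18.2 CPM at day 21. Gphn stood at 14.7 and 14.1 CPM at day 1 and at 598 and 542 CPM at day 21. Cmss1 overlaps Filip1l on the opposite strand, and Gphn overlaps Gm48226. Il31ra has 68790 intron bases and Cdk8 has 61813. Ambra1 has 182594, Cmss1 302868, Gphn 454645 and Gm48099 11063. The part of intron length in these likenesses was not tested. By the same measure Il31ra had r = 0.167 with its partner Osmr and r = 0.274 with Il6st.

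Osmr, the subunit shared by the receptors for oncostatin M and interleukin-31, was highest in arterial cells at day 21 and in matrix fibroblasts at day 1. In arterial cells it stood at 31.7 and 30.7 CPM at day 1, 113 and 136 CPM at day 21 in room air and 120 and 127 CPM after hyperoxia. In gCap it stood at 12.9 and 11.9 CPM, then 48.8 and 46.5 CPM, then 49.0 and 47.2 CPM. In venous cells it stood at 12.0 and 5.68 CPM, then 29.2 and 49.6 CPM, then 48.9 and 64.6 CPM. In these 3 classes all day 21 libraries were above both day 1 libraries. In aCap it was low at both ages, at 5.61 and 8.89 CPM at day 1, 10.8 and 9.12 CPM at day 21 in room air and 13.5 and 13.5 CPM after hyperoxia.

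Among the classes with at least 50 cells at day 21 in room air, arterial cells came first in both sexes. Matrix fibroblasts (60.5 and 93.2 CPM) came next, followed by gCap and venous cells, whose ranges overlapped, and by myofibroblasts (26.6 and 24.9 CPM). Without doublets the age difference of Osmr in matrix fibroblasts turned from 0.79 to -0.20, and the cause was not tested. Epithelial AT2 cells of the female room air library (133 cells) stood at 23.6 CPM, above aCap. Neutrophils stood at 0.685 and 0.721 CPM and alveolar macrophages at 0.254 and 0.287 CPM. An Osmr UMI was found in 51.5% of female arterial cells at day 21 in room air (95% interval 46.0% to 56.9%) and in 0.215% of female neutrophils, at a median of 8686 and 5083 UMIs per cell, and after thinning in 17.8% of the arterial cells.

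The 5 genes most like Osmr over the same sums were Klhl13 (r = 0.931), the matrix protease Adamts9 (r = 0.926), Mindy4 (r = 0.923), Sh3d19 (r = 0.921) and the methionine sulfoxide reductase Msrb3 (r = 0.918). Of the other members, Lifr had r = 0.70 with Osmr and Il6st r = 0.608, whereas Osm had r = -0.562 and Il6ra r = -0.553. Over these sums, which mix classes, ages and software versions, more Osmr thus tended to go with less of its ligand.

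Il6st, which encodes the shared signal subunit gp130, was present in nearly all classes and was highest in venous cells at day 21. In venous cells it stood at 93.1 and 77.0 CPM at day 1, 584 and 475 CPM at day 21 in room air and 560 and 422 CPM after hyperoxia. In gCap it stood at 58.1 and 49.3 CPM, then 173 and 148 CPM, then 138 and 128 CPM. In arterial cells it stood at 55.4 and 57.8 CPM, then 193 and 141 CPM, then 150 and 140 CPM. No day 21 library overlapped the day 1 libraries in these classes, and venous cells lay above every other class of at least 50 cells in each day 21 library. In aCap the levels were closer, at 54.7 and 52.6 CPM at day 1 and 92.4 and 73.4 CPM at day 21 in room air. Neutrophils were lowest among the classes measured at both ages in both sexes, with 5.01 and 2.42 CPM at day 1 and 3.62 and 3.60 CPM at day 21.

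Lifr, the partner of gp130 for leukaemia inhibitory factor, was also highest in venous cells at day 21. It stood at 68.6 and 59.3 CPM in venous cells at day 1, 420 and 275 CPM at day 21 in room air and 374 and 287 CPM after hyperoxia. In arterial cells it stood at 81.5 and 74.4 CPM, then 314 and 241 CPM, then 260 and 220 CPM. In gCap it stood at 68.8 and 70.0 CPM, then 268 and 226 CPM, then 212 and 206 CPM, and in aCap at 47.0 and 68.3 CPM, then 181 and 150 CPM, then 143 and 142 CPM. At day 21 in room air the order was venous, arterial, gCap and aCap in both sexes, and over the sexes the range of arterial cells overlapped those of venous cells and of gCap, which did not overlap each other.

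Within gCap, cells with a UMI of 1 receptor gene also had more UMIs in all. In the female day 21 room air library 77.4% of 442 cells with Osmr had Il6st, against 71.2% of 1342 cells without Osmr, at a median of 9632 and 8410 UMIs. In the male library the shares were 64.6% and 63.7%, at 8622 and 7458 UMIs. For Il31ra, 26.0% of the 1151 female cells with it had Osmr and 22.6% of the 633 without it, at 9278 and 7799 UMIs. These shares move with depth, whose part in them was not tested.

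Il6ra, the ligand-binding subunit for interleukin-6, was highest in nonclassical monocytes at day 21 among classes with at least 50 cells and was low in gCap, aCap, arterial and venous cells. Nonclassical monocytes stood at 508 and 444 CPM at day 21 in room air and 534 and 501 CPM after hyperoxia. Neutrophils stood at 171 and 147 CPM at day 1, 356 and 352 CPM at day 21 in room air and 372 and 317 CPM after hyperoxia. T cells stood at 134 and 157 CPM at day 21 in room air and 173 and 186 CPM after hyperoxia. In gCap it stood at 5.89 and 4.90 CPM at day 1 and at 1.99 and 2.22 CPM at day 21. Neutrophil markers summed to 1067 and 418 CPM in gCap at day 1 and to 181 and 65.4 CPM at day 21 in room air, and their part in the low gCap values was not tested. Matrix fibroblasts were the mesenchymal class with the most, at 82.0 and 66.9 CPM at day 1 and 121 and 143 CPM at day 21. Without doublets the age difference in that class turned from 0.62 to -1.94, and the cause was not tested.

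Osm, which encodes oncostatin M, was highest in granulocytes. At day 21 in room air basophils (74 and 57 cells) stood at 853 and 1012 CPM, above all other classes of at least 50 cells in either sex. Neutrophils stood at 344 and 249 CPM at day 1, 247 and 258 CPM at day 21 in room air and 213 and 194 CPM after hyperoxia, so both hyperoxia libraries were below the other 4. Alveolar macrophages stood at 205 and 75.6 CPM at day 1, 10.4 and 11.9 CPM at day 21 in room air and 12.6 and 18.0 CPM after hyperoxia. The alveolar macrophage markers summed to 2546 and 1947 CPM in that class at day 1 and to 14420 and 11810 CPM at day 21 in room air, so cells under 1 name carried different marker levels at the 2 ages. In the 4 endothelial classes Osm was at most 5.96 CPM in any library.

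Lif, a second ligand of the family, was sparse, with 273 UMIs over all classed cells of the 6 libraries. The day 1 libraries held 108 and 48 UMIs, the day 21 room air libraries 50 and 26, and the hyperoxia libraries 17 and 24. At day 1 the highest class of at least 50 cells was alveolar macrophages in females (8.29 CPM, 19 UMIs). In males it was matrix fibroblasts (6.02 CPM, 9 UMIs). Of the classes with at least 50 cells, regulatory T cells stood at 7.72 and 2.23 CPM in room air and 2.45 and 3.75 CPM after hyperoxia at day 21, from 22, 3, 8 and 12 UMIs in that order, and the value from 3 UMIs is at the floor of its library. In gCap 0 Lif UMIs were found in both day 1 libraries.

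Socs3, the feedback inhibitor, was widespread and highest in neutrophils. Neutrophils stood at 369 and 332 CPM at day 1, 429 and 564 CPM at day 21 in room air and 309 and 317 CPM after hyperoxia. In gCap it stood at 165 and 96.8 CPM, then 74.2 and 108 CPM, then 86.7 and 98.6 CPM, so the ages overlapped. In aCap it stood at 148 and 103 CPM, then 33.1 and 41.8 CPM, then 40.0 and 38.5 CPM, with no overlap between the ages. Immediate early and dissociation genes, which respond to the handling of tissue, summed to 2979 and 2692 CPM in aCap at day 1 and to 2186 and 2426 CPM at day 21 in room air, and their part in the Socs3 levels was not tested. Of the classes fitted, alveolar macrophages had the largest age difference, with 146 and 84.0 CPM at day 1 and 6.59 and 5.17 CPM at day 21 in room air. Immediate early and dissociation genes in that class summed to 2116 and 1088 CPM at day 1 and 527 and 588 CPM at day 21, and their part was not tested.

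**Figure D3:**
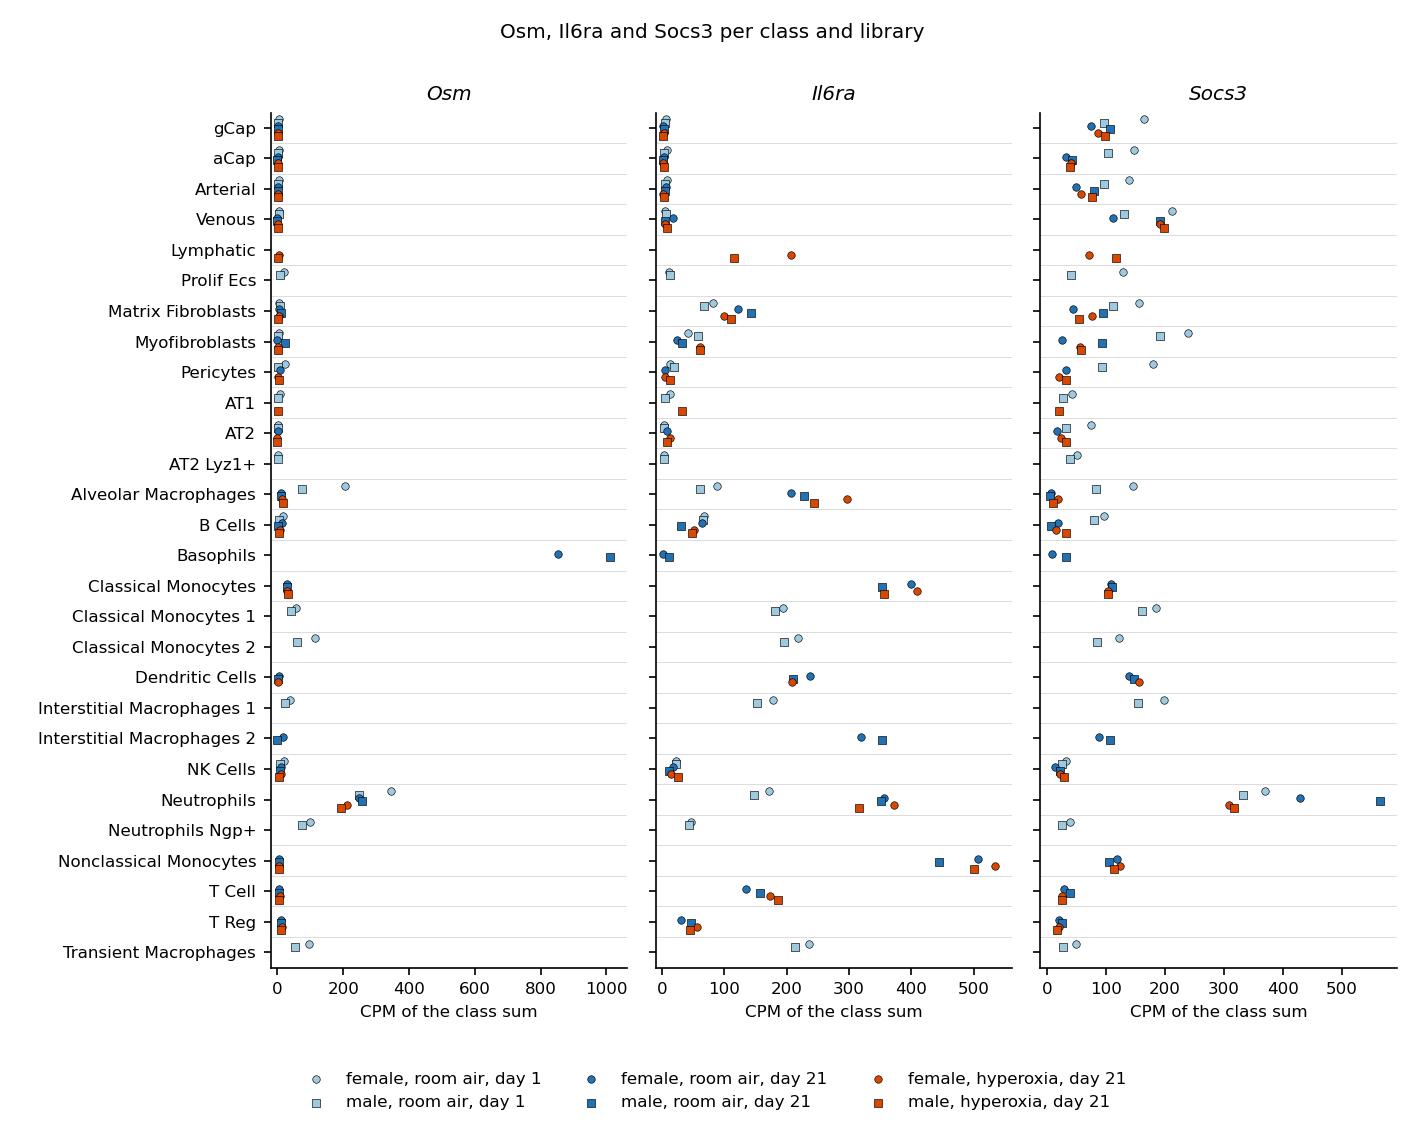
CPM of Osm, Il6ra and Socs3 per class and library, for classes with at least 50 cells in that library; the x axes differ. Osm peaks in basophils at 853 and 1012 CPM, Il6ra in nonclassical monocytes at day 21, and Socs3 in neutrophils, where the hyperoxia points (309 and 317 CPM) lie below the room air points of both ages.

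The first comparison asked how day 21 differed from day 1 in room air. In the 10 classes with at least 50 cells in each of the 4 libraries, 63 of 80 pairs of a member and a class passed the filter on low counts. Of these, 49 were called by edgeR at an adjusted p under 0.05, 32 higher and 17 lower at day 21, beside 54.3% of all 109029 pairs of a gene and a class (28.6% higher, 25.7% lower). In the 4 endothelial classes 22 of 25 were called, 15 higher and 7 lower, beside 57.8% of all pairs (30.2% higher, 27.6% lower). The members were chosen on this contrast, so nothing is read from the counts. DESeq2 called 30 of the 63.

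In gCap the log2 difference was 1.82 ± 0.15 (SE) for Osmr, 1.71 ± 0.12 for Lifr and 1.46 ± 0.12 for Il6st, and negative for Il6ra (-1.49 ± 0.30), Osm (-1.45 ± 0.37) and Socs3 (-0.63 ± 0.15). A fit of age or hyperoxia with 1 library left out has 3 libraries and no term for sex, so 2 choices change together in it. Without the female day 1 library the value was -0.76 for Osm and -0.25 for Socs3, without the female day 21 library -1.24 and -0.39, and with DESeq2 -1.36 and -0.63, and neither was called in these fits. Osm was also not called without the male day 21 library (-1.68). In venous cells Il6st had the largest value of these receptors, 2.51 ± 0.23, with 2.30 ± 0.23 for Lifr and 1.97 ± 0.42 for Osmr. In aCap Lifr stood apart at 1.45 ± 0.17, beside 0.53 ± 0.17 for Il6st and 0.38 ± 0.31 for Osmr. The fitted value of Il31ra depends on how its zeros at day 1 are treated and is not given.

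These differences moved with the length of a gene's introns. In gCap the median age difference over all genes tested was -0.60 for genes with no intron, -0.51 for those with up to 10000 intron bases, 0.06 above that and up to 50000, 0.61 above that and up to 100000, and 1.31 above 100000. Osmr, with 49280 intron bases, lay at percentile 92.0 of its length group, Il6st (34918 bases) at 89.8 and Lifr (96100 bases) at 87.1. Il6ra (40496 bases) lay at percentile 5.46, Osm (2335 bases) at 12.8 and Socs3 (1078 bases) at 43.5. Il31ra (68790 bases) is left out here, since its fitted value depends on how its zeros at day 1 are treated. In aCap the percentiles were 66.9 for Osmr, 73.8 for Il6st, 85.8 for Lifr, 6.57 for Il6ra, 5.45 for Osm and 7.67 for Socs3. In gCap Osmr, Il6st and Lifr lay in the upper part of genes of like intron length, and Socs3 near the middle. In aCap Osmr lay nearer the middle, at 66.9, and Socs3 lay low, at 7.67. The members were chosen on this contrast, so nothing is read from these ranks. The part of intron length in the age differences was not tested. The hyperoxia comparison holds both age and software version constant and so cannot tell them apart. In it the medians of the length groups ranged from -0.017 to 0.005 in gCap and from -0.013 to 0.044 in aCap.

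**Figure D4:**
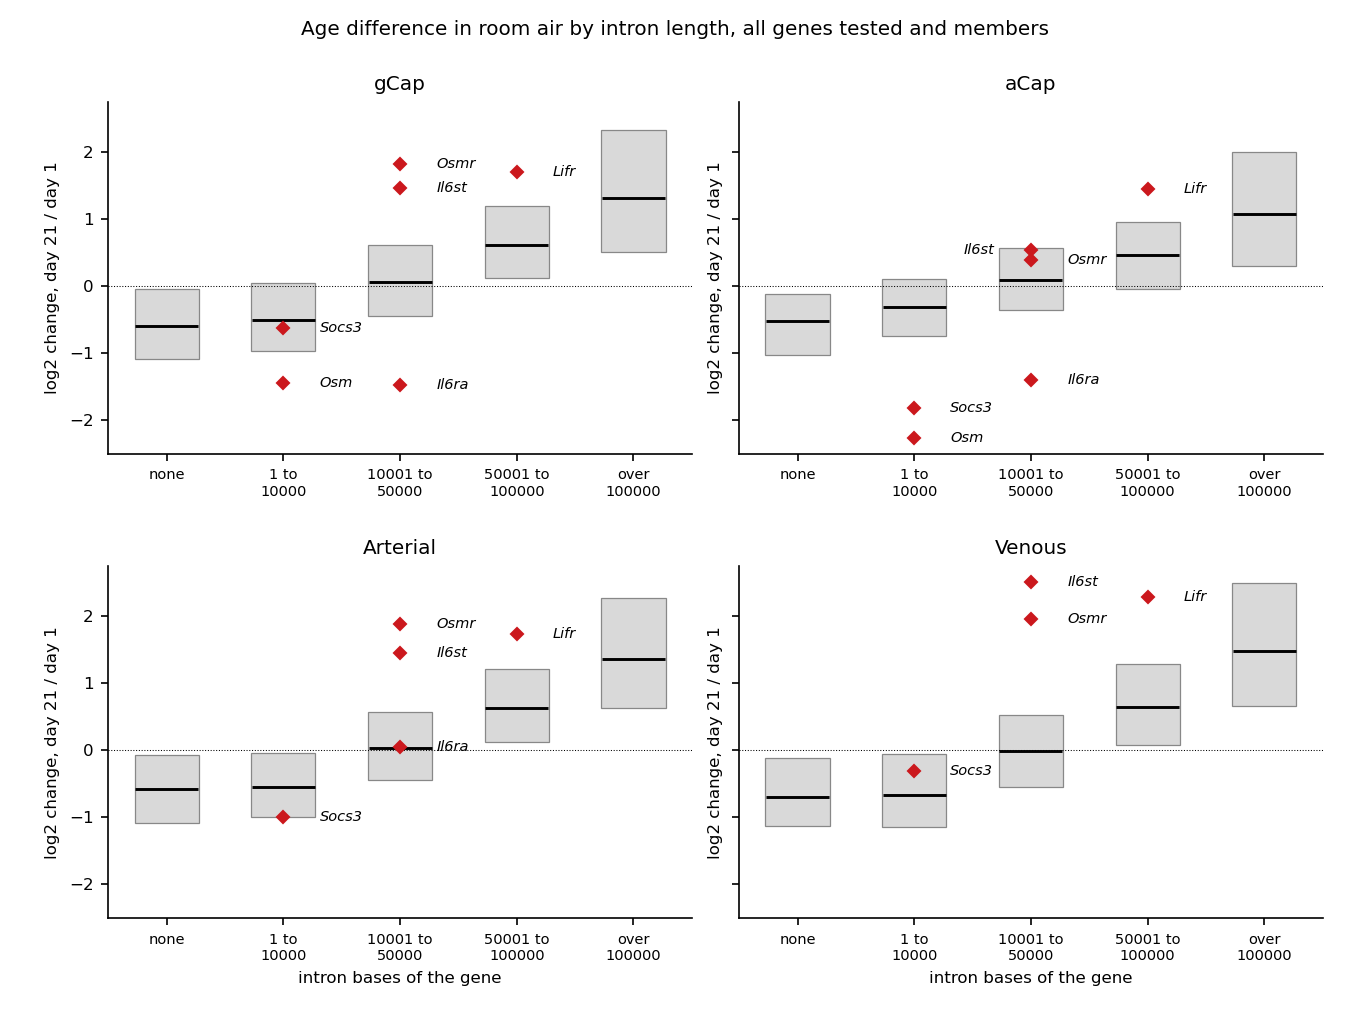
Log2 difference between day 21 and day 1 in room air in 4 endothelial classes, by the intron bases of the gene; grey boxes span the quartiles of all genes tested, black lines mark medians, and red diamonds mark the members (Il31ra, with 0 or 1 UMI at day 1, is left out). The medians climb with intron length in each class, from -0.60 to 1.31 in gCap, and Osmr, Il6st and Lifr lie above the quartiles of their groups in gCap, arterial and venous cells.

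The second comparison asked what remained at day 21 of the exposure to hyperoxia. In gCap the log2 difference between hyperoxia and room air was 0.03 ± 0.09 for Osmr, 0.21 ± 0.09 for Il31ra, -0.22 ± 0.08 for Lifr and -0.25 ± 0.08 for Il6st, and 0.07 ± 0.09 for Socs3. Both hyperoxia libraries lay below both room air libraries for Lifr and Il6st in gCap, and the groups overlapped for Osmr, Il31ra and Socs3. How many of all genes separate in this way was not counted, here or in the other comparisons, and nothing is read from it. In venous cells the values were 0.56 ± 0.29 for Osmr, 0.41 ± 0.21 for Socs3, -0.10 ± 0.20 for Il6st and -0.04 ± 0.20 for Lifr. In aCap they were 0.44 ± 0.16 for Osmr, with both hyperoxia libraries (13.5 and 13.5 CPM) above both room air libraries (10.8 and 9.12 CPM), and -0.21 ± 0.09 for Lifr. In arterial cells they were -1.97 ± 0.56 for Il6ra, 0.01 ± 0.12 for Osmr, -0.18 ± 0.11 for Il6st and -0.18 ± 0.11 for Lifr.

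Over 14 classes 86 of 112 pairs of a member and a class passed the filter, and 6 were called, 4 higher and 2 lower, beside 2.28% of all 154767 pairs (1.63% higher, 0.654% lower). In the 4 endothelial classes 1 of 24 was called, lower, beside 1.58% of all pairs (0.868% higher, 0.714% lower). The members were chosen with this contrast in view, and nothing is read from these counts. DESeq2 called 2 of the 86. Without the female hyperoxia cells that lacked Xist 4 were called, 3 of them among the 6. Leaving out the male day 21 room air library brought Il6st (-0.36), Lifr (-0.34) and Socs3 (0.34) in gCap and Lifr (-0.33) in aCap past the threshold, and leaving out the female one did so for Il31ra in gCap (0.49). These fits also had no term for sex. Il6st in gCap was called without doublets too (-0.26).

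The 6 pairs called are described here and not read as tests, since the choice of members had used this contrast. Of these pairs, Socs3 in neutrophils had the most counts behind it. It stood at 429 and 564 CPM in room air and 309 and 317 CPM after hyperoxia, a log2 difference of -0.69 ± 0.11 with no overlap between the groups. Without the male room air library and the term for sex it was -0.51 and no longer called. Immediate early and dissociation genes summed to 4252 and 4286 CPM in room air neutrophils and 4032 and 4228 CPM after hyperoxia.

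In alveolar macrophages Lifr stood at 1.94 and 3.30 CPM in room air and 16.1 and 18.9 CPM after hyperoxia, a log2 difference of 2.70 ± 0.32. Endothelial markers in the same class summed to 37.9 and 55.4 CPM in room air and 597 and 382 CPM after hyperoxia, with all 4 markers seen in each library. When cells marked as doublets were left out the Lifr difference was 1.25 and no longer called. Socs3 in this class stood at 6.59 and 5.17 CPM in room air and 18.3 and 10.7 CPM after hyperoxia (1.21 ± 0.28), and without doublets the difference was 0.09. Immediate early and dissociation genes in this class summed to 527 and 588 CPM in room air and 858 and 781 CPM after hyperoxia, and their part was not tested. Socs3 was also no longer called without the female hyperoxia library (0.80) or the male room air library (1.01).

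Of the other 3 pairs, 2 were in myofibroblasts. Myofibroblasts had Il6ra at 23.5 and 31.3 CPM in room air and 61.4 and 61.1 CPM after hyperoxia (1.14 ± 0.29). Lifr in the same class stood at 61.0 and 51.6 CPM and then 106 and 90.4 CPM (0.81 ± 0.24). Endothelial markers in myofibroblasts summed to 21.9 and 206 CPM in room air and 361 and 729 CPM after hyperoxia, and their part was not tested. In arterial cells Il6ra had 22 and 12 UMIs in room air and 2 and 9 after hyperoxia (-1.97 ± 0.56). None of these 3 pairs was still called when any 1 of the 4 libraries was left out, nor without doublets (1.38, 0.89 and -1.92).

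**Figure D5:**
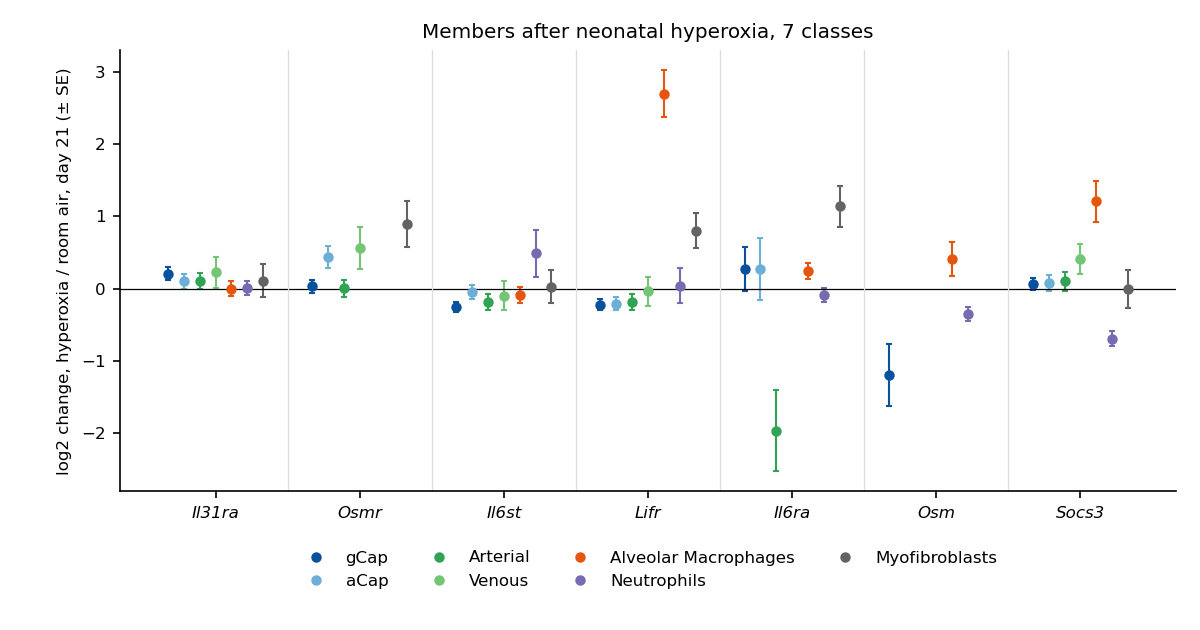
Log2 difference between hyperoxia and room air at day 21 (points, with SE bars) for 7 of the 8 members in 7 classes; pairs that did not pass the filter on low counts have no point, and Lif, which passed it only in regulatory T cells, is not shown. The endothelial points of Il31ra, Osmr, Il6st and Lifr lie between -0.25 and 0.56, and the largest value is Lifr in alveolar macrophages at 2.70.

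Lymphatic cells could not be fitted, since the room air libraries held 23 and 36 of them and the hyperoxia libraries 64 and 54. Il6ra in this class stood at 14.4 and 57.3 CPM in room air and 207 and 115 CPM after hyperoxia, and Osmr at 86.5 and 107 CPM and then 47.9 and 38.5 CPM. Immune markers summed to 322 and 662 CPM in these room air cells and to 2158 and 1711 CPM after hyperoxia, and lymphatic markers to 3803 and 4894 CPM and then 1567 and 2699 CPM. The part of those cells in the receptor values was not tested.

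The other 39 genes of the pathway were tested in the same way. Their list was also drawn up with earlier results of these data known, so its calls are not independent support. Of 108 of their pairs tested in the 4 endothelial classes 8 were called by edgeR, 7 higher and 1 lower, beside 1.58% of all pairs, and DESeq2 called 1. All 7 higher calls were among 46 pairs of the textbook STAT3 targets, of which 12 of 14 could be tested in endothelium. The median log2 difference of these pairs was 0.15 beside -0.002 over all genes. Over all 14 classes the targets had a median of 0.03, and 9 of 155 pairs were called, 7 higher and 2 lower. Of all pairs in those classes 2.28% were called. Nothing is read from these counts, since the list was drawn up with earlier results known. Lrg1, a secreted glycoprotein that acts on vessels, rose in venous cells from 122 and 183 CPM to 386 and 277 CPM (1.15 ± 0.21, edgeR adjusted p = 2.18e-05, higher in both sexes). The transcription factor Cebpb rose in venous cells (0.93 ± 0.24, edgeR adjusted p = 0.0251), and the anti-apoptotic gene Bcl2l1 rose in gCap from 248 and 220 CPM to 348 and 340 CPM (0.58 ± 0.08, edgeR adjusted p = 2.73e-05). Immediate early and dissociation genes summed to 1427 and 1709 CPM in room air gCap and 1561 and 1808 CPM after hyperoxia, and neutrophil markers to 76.0 and 71.8 CPM in room air venous cells and 707 and 1434 CPM after hyperoxia; their part was not tested.

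Each of these 3 calls was lost in several other fits. With no term for sex and all 4 libraries the values were 1.15 for Lrg1, 0.90 for Cebpb and 0.57 for Bcl2l1, and none was called. The fits with 1 library left out had no such term either. Lrg1 in venous cells was no longer called without the female hyperoxia library (0.90) or the female room air library (0.86), nor with DESeq2 (1.15), without doublets (0.91) or without the female cells that lacked Xist (1.18). Cebpb was no longer called without any 1 of the 4 libraries (0.71 to 1.16), nor with DESeq2 (0.94), upper-quartile scaling (0.93), without doublets (0.86) or without the cells that lacked Xist (1.04). Bcl2l1 was no longer called without the female (0.56) or the male (0.59) hyperoxia library. In each of these fits the direction stayed.

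Between the ages 83 of 116 pairs of the same list were called in endothelium, 40 higher and 43 lower at day 21, beside 57.8% of all pairs (30.2% higher, 27.6% lower). The signal transducers had 21 of 32 pairs called, all higher at day 21, and the inhibitors 10 of 19, all lower; the difference between these lists was not tested, nor was the part of intron length. The largest rises by the naming rule were in venous cells, in the interleukin-1 receptor Il1r1 (3.09 ± 0.29, edgeR adjusted p = 3.47e-25), Bcl2l1 (2.25 ± 0.24, edgeR adjusted p = 8.65e-20) and Stat5b (2.11 ± 0.31, edgeR adjusted p = 9.05e-11). The largest falls were in Lcn2 (-6.39 ± 0.51, edgeR adjusted p = 2.15e-33) and Timp1 (-4.16 ± 0.51, edgeR adjusted p = 9.14e-15) in venous cells and in Myc in gCap (-3.51 ± 0.40, edgeR adjusted p = 7.56e-11). Each held in both sexes. Lcn2, which neutrophils also make, stood at 133 and 105 CPM in venous cells at day 1, where neutrophil markers summed to 995 and 436 CPM against 76.0 and 71.8 CPM at day 21, and their part was not tested.

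The remaining comparisons concerned the sexes, which the choice of members had not used. No member passed the test between females and males in any of 63 pairs of a member and a class over 10 classes (edgeR 0 called, 11 at an unadjusted p under 0.05, DESeq2 0), beside 0.105% of all 112850 pairs. In the endothelial classes 0 of 25 were called by edgeR or DESeq2 (7 at an unadjusted p under 0.05), beside 0.135% of all pairs. Il31ra in gCap, with 123 against 86.1 CPM in room air and 122 against 115 CPM after hyperoxia, was higher in females in 2 of 2 pairs of libraries in which it was seen (log2 difference 0.30 ± 0.10, edgeR adjusted p = 0.535). Lifr in venous cells was higher in females in 3 of 3 pairs (0.39 ± 0.15, edgeR adjusted p = 0.994). Among the 10 classes Il31ra was lower in females only in alveolar macrophages (-0.29 ± 0.12). Socs3 in that class had the lowest unadjusted edgeR p of the 63 pairs (0.59 ± 0.14, edgeR adjusted p = 0.399). Osm in B cells differed by 1.695 ± 0.485 (edgeR adjusted p = 0.8). Both Socs3 in alveolar macrophages and Osm in B cells were called by edgeR with no filter on low counts. Socs3 in arterial cells had a log2 difference of -0.17 ± 0.16 (edgeR adjusted p = 0.851), and without the female day 1 library it was -0.53 (edgeR adjusted p = 0.0115). Socs3 in myofibroblasts was likewise called without that library (-0.90, edgeR adjusted p = 0.0455). Leaving out the male day 1 library gave nearly the same fit, in which both were also called. Either way the sex difference rests on the day 21 libraries, since each condition has its own term. None of 284 pairs of the other pathway genes was called by edgeR (22 at an unadjusted p under 0.05) or by DESeq2.

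A term for a different hyperoxia response in females was tested in the same 10 classes. All libraries were fitted together. The sex difference after hyperoxia was thus set against a sex difference in room air that was shared by day 1 and day 21. The day 1 libraries came from the other software version. In the female hyperoxia library 35.5% of gCap cells had no Xist UMI, and the term without those cells is not given here. None of 69 pairs was called by edgeR (7 at an unadjusted p under 0.05) or by DESeq2, beside 0.428% of all 120233 pairs. In the endothelial classes 0 of 27 were called by edgeR or DESeq2 (1 at an unadjusted p under 0.05), beside 0.303% of all pairs. In gCap the term was 0.00 ± 0.24 for Osmr, -0.42 ± 0.24 for Il31ra, -0.08 ± 0.20 for Il6st and -0.05 ± 0.20 for Lifr (edgeR adjusted p = 1.0 for each).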

How the data were processed

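The UMI counts were deposited per library, and per the file headers they came from Cell Ranger 6.0.0 (day 1) and 7.0.1 (day 21); the submitters' processing notes name mm10 and Seurat 4.1.1. Classes are those the authors deposited. Counts were summed per class and library, as CPM with exact Poisson 95% intervals (counting error only), and tested where each library compared had at least 50 cells, with edgeR 4.0.16's quasi-likelihood test (filterByExpr, TMM, Benjamini-Hochberg within a class, threshold 0.05) in R 4.3.3. Sex was a covariate for age and hyperoxia, and condition for sex. The SE of an edgeR log2 difference was worked back from the test, as its absolute value divided by the square root of the quasi-likelihood F. DESeq2 1.42.0 and other scalings, filters and left-out libraries were alternatives, as were fits without doublets (the highest Scrublet scores, 0.8% per 1000 cells) or, added after seeing the data, without female hyperoxia cells lacking Xist. The hyperoxia, age and sex tests were also run on simulated gCap counts, with 200 genes changed, the same spread for all genes and no other effect. The changed genes were drawn from those with at least 200 UMIs over the libraries compared. Recovery of sparser genes, or in smaller classes, was thus not examined. For hyperoxia 78 of 93 changes of log2 size 1 and 107 of 107 of size 2 were recovered. False calls numbered 15 for hyperoxia, 10 for age and 3 for sex. The members and lists were chosen with earlier results of these data known. Named pathway genes are the 3 called rises and 3 called falls of largest log2 change per contrast in endothelial classes, with at least 20 UMIs in each library of the higher side and 1 direction in both sexes. Like genes are the 5 of highest Pearson r of log2(CPM + 1). One gene that this rule names is not reported here.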

Additional observations from a re-analysis of the deposited data

Results flagged for a closer look

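Each library held 2457 to 3938 barcodes to which the authors gave no class, and which no comparison above used. All 8 genes had UMIs in them above the limit that a count of 0 allows, except Il31ra at day 1. Il31ra stood at 109.9 CPM in these barcodes at day 21. Osmr stood at 6.86 CPM at day 1 and 10.51 CPM at day 21, Il6st at 52.88 and 88.87 CPM, and Lifr at 50.66 and 67.76 CPM. Il6ra stood at 52.39 and 127.4 CPM, Osm at 31.74 and 16.37 CPM, Lif at 0.4504 and 0.3434 CPM, and Socs3 at 62.48 and 41.73 CPM.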

How the results depend on the processing

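Against 6 hyperoxia calls among the members, DESeq2 made 2, the fit with no sex covariate 3, and the fits that left out 1 library 3 to 7, of which 1 to 3 were among the 6. With 1 library left out, the fits of hyperoxia and age had no sex covariate either, so a move cannot be assigned to the library. Without doublets 6 pairs were called, of which 1, Socs3 in neutrophils, was among the 6. Over 14 classes the other pathway genes had 14 of 378 pairs called after hyperoxia (3.7%), beside 2.28% of all pairs. For the 14 pathway calls after hyperoxia the counts were 4 with DESeq2, 38 with no filter on low counts, 23 without doublets, 3 with no sex covariate and 8 to 21 with 1 library left out. Without the female hyperoxia cells that lacked Xist they were 4 and 17. Between the ages DESeq2 gave 30 in place of 49 calls for the members and 114 in place of 181 for the pathway. Those 181 were of 284 pairs (63.7%), beside 54.3% of all pairs. Between the sexes edgeR's 0 calls became 2 for the members and 5 for the pathway with no filter, and 0 to 2 and 1 to 4 with 1 library left out; without the cells that lacked Xist edgeR made 0 and 0. Without doublets the age difference in matrix fibroblasts reversed for Il6ra (0.62 to -1.94) and Osmr (0.79 to -0.20); the cause was not tested. The interaction could not be fitted with a library left out, since no residual degrees of freedom remained. No paired analysis was possible because each group held 1 library and 1 replicate number; sex, which the groups share, was already the covariate for age and hyperoxia. Lif, with 273 UMIs, and classes under 50 cells are limited by depth.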
